A study of Mus musculus with 12 samples.

Results

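Kidney organoids after 7 days of culture were compared with newborn mouse kidney, on 3 arrays against 1 of the 12 arrays in the series. The design text gives developmental maturity as the question, so the genes below are ordered by what a finished nephron does and by what a growing kidney does. The organoids were put together from nephron progenitors and ureteric bud induced from mouse embryonic stem cells and from stromal progenitors of E11.5 embryonic kidney, and they carry 2 backgrounds: wild-type ICR from the embryo, and B6 and 129SV from the stem cells. They grew on a transwell in Matrigel, in DMEM/F12 with serum. The newborn sample is a whole P0 kidney without its ureter, from wild-type ICR mice, and has not been cultured. Strain, culture, age and the scanned slide therefore all differ between the groups and cannot be told apart in this comparison. The stroma of the organoids comes from an embryo, so the organoids are not made of stem cell derivatives alone. Fresh kidneys of 4 embryonic stages (E11.5 to E17.5 at steps of 2 days) and an E11.5 kidney cultured for 7 days, all wild-type ICR with 1 array each, are used as reference levels. The organoids at day 0, immediately after they were put together, have 3 arrays and enter the estimate of the spread, the choice of each gene's brightest probe and, in an alternative fit, the correction for the slide. The labels number the organoid replicates without saying that they were separate cultures, so p-values measure the spread between these arrays, which may be technical. The newborn kidney has 1 array and was assumed to vary as an organoid replicate does.

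A nephron filters blood at the podocytes of the glomerulus and then recovers and secretes solutes along the proximal tubule, the loop of Henle, the distal tubule and the collecting duct. Each segment has its own transporters, and the proximal tubule also burns fatty acids and makes glucose. In the mouse the kidney still forms nephrons at birth: cap mesenchyme progenitors renew beside the branching ureteric tips under signals from the cortical stroma, and the last of them are used up in the first days after birth. A level below is the log2 signal of a gene's brightest probe minus the 75th percentile of its array, so that 0 is the 75th percentile and 1 unit is a doubling. Levels are compared between arrays for 1 gene, never between genes. In these whole samples, fewer cells of a type and less RNA per cell cannot be told apart.

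Signal was alike across the 4 arrays. The 75th percentile was 201 to 206.3 scanner units in the organoids and 286.8 in the newborn kidney, the share of probes well above background was 57.29% to 58.15% and 60.15%, and no spot was saturated. Of 17604 genes tested, 7522 differed between day 7 organoids and newborn kidney at an adjusted p below 0.05, which is 42.7%. Of all tested genes, 24.6% were higher in the organoids (4339 genes) and 18.1% were lower (3183 genes), and the median difference was 0.09. The changes of large size were mostly losses: 485 genes were at least 8-fold lower and 142 at least 8-fold higher. At 16-fold the counts were 269 lower and 53 higher. All day 7 arrays were scanned on another slide than the newborn kidney. A fit with the slide as a block rests on the day 0 organoids, which lie on both slides. Their replicates 1 and 2 share the slide of the newborn kidney, and replicate 3 that of the day 7 arrays. The slide term thus comes from 1 array against 2. Where a call is lost in this fit, lower precision and a slide effect cannot be told apart. The fit called 1820 of the 17604 genes higher and 2034 lower. These counts and the shares above are the background for each list count below. Its count is given beside each list where the larger of the higher and lower counts changed by more than 1.5 times. Of the genes in the lists of kidney segments and fetal programmes, Arhgap24, Dpys, Kcne1, Epo, Dppa2, Rtl1 and Hba-x were too dim to test, and Gsta1 was not analysed here.

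**Figure D1:**
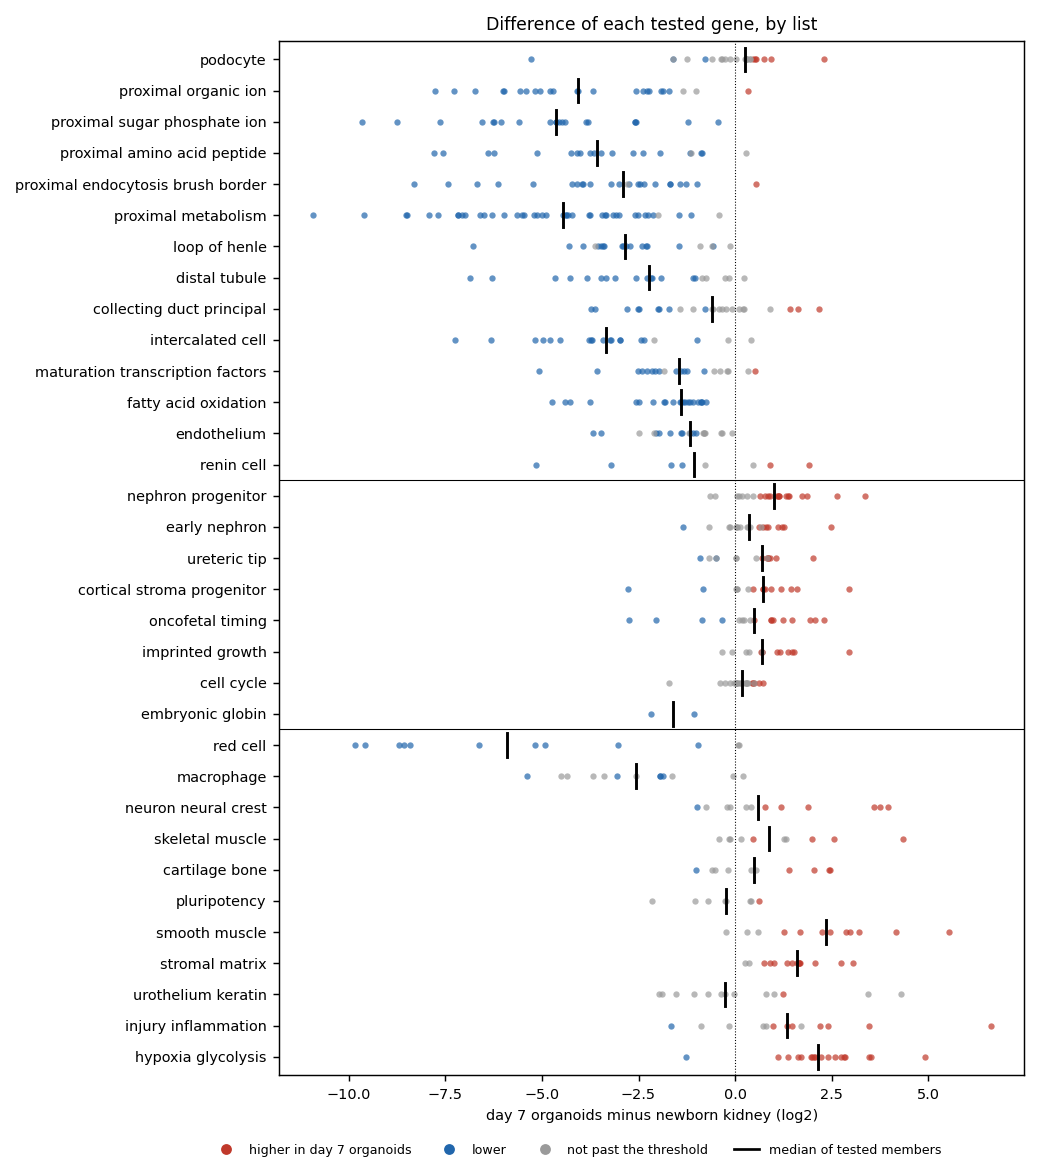
Difference between day 7 organoids and newborn kidney on the log2 scale (x axis) for every tested gene of each list (y axis). Points are genes, red higher, blue lower and grey not past an adjusted p of 0.05, and black bars are list medians, from -5.9 for red cells and -4.63 for sugar, phosphate and ion transport in the proximal tubule to 2.34 for smooth muscle. The 3 blocks hold mature kidney lists, fetal lists and lists of other cell types or states.

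The organoids expressed the genes that mark kidney. Pax2, Pax8, Wt1, Cdh16, Six2, Foxd1 and Gata3, which mark nephron lineage, tubule, progenitors, stroma and collecting duct, were well above background on all 4 arrays. Pax8, a transcription factor of the nephron lineage, stood at 2.27, 2.47 and 2.47 in the organoids and at 2.36 in newborn kidney (difference 0.04 ± 0.16, SE, adjusted p = 0.85). Gata3 did not pass the test either, with a difference of -0.08 ± 0.24. Cdh16, a cadherin of tubule epithelium, was lower in the organoids by 1.78-fold (adjusted p = 0.0176, and 0.181 with the slide as a block).

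Genes of the podocyte, the filtering cell, were called about as often as all genes. Of 24 tested podocyte genes 6 were higher, against 24.6% of all genes, 3 lower, against 18.1% of all genes, and 15 did not pass the test, and the median difference was 0.27. With the slide as a block the count fell to 1 higher and 1 lower. Podxl, a surface sialomucin, stood at 1.19, 0.51 and 1.26 in the organoids and at 1.35 in newborn kidney, and did not pass (difference -0.36 ± 0.35, adjusted p = 0.445). All 3 organoid arrays lay below the newborn array. Synpo, an actin organizer, did not pass the test either (0.32 ± 0.22), although it passed as higher, at 0.48, without day 7 replicate 2 (adjusted p = 0.0476). Nphs1, which encodes nephrin, was the exception in size. Its levels were -4.68, -6.08 and -6.0 against -0.29 in newborn kidney, only 1 of the 3 organoid arrays was well above background, and it was at least 24.3-fold lower (adjusted p = 0.00462). Col4a3, a collagen chain of the mature glomerular basement membrane, was 3.08-fold lower (adjusted p = 0.00402, and 0.058 with the slide as a block). Vegfa, the growth factor by which podocytes sustain glomerular capillaries and a known hypoxia target, was higher: 4.7, 4.86 and 4.65 against 2.45, a 4.89-fold difference (adjusted p = 0.000167). The cultured E11.5 kidney had Vegfa at 4.43.

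The proximal tubule had the lowest median among the nephron segments, taken as a whole. Of its 132 tested genes 123 were lower in the organoids, 2 were higher and 7 did not pass the test. The share of all genes called lower was 18.1%. The median difference was -4.07, or 16.8-fold, 87 genes were at least 8-fold lower and 68 at least 16-fold lower. For 14 of the lower genes no day 7 array was well above background. Both calls as higher, among them the efflux pump Abcc4 at 0.34, were lost without any 1 of the day 7 arrays.

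Transcription of many proximal tubule genes is known to depend on HNF4 factors. Of the 123 lower genes 101 had a promoter in the RefSeq table, from 250 bases before to 50 after the gene start. The HNF4 core CAAAGTCCA, on either strand, occurred in 6 of these genes (5.94%) and in 0.555% of the 27025 genes in the table. A match is a run of letters and does not show binding. The 123 genes are most of the 132 proximal genes tested, so the share describes the proximal lists. Whether matches go with the lower levels in the organoids was not tested. Stretches of 80 bases before the gene start are shown for 2 of the lower genes, to let the matches be seen in place, with matches in capitals, 5′ to 3′ on the gene's strand, on build GRCm38.p6.
Slc3a1, chr17:85028267-85028346, plus strand: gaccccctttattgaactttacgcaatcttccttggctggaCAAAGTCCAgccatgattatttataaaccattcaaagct
Treh, chr9:44673132-44673211, plus strand: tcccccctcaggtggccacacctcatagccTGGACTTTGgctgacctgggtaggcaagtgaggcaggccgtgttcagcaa
In Slc3a1 the core begins 39 bases before the gene start, and in Treh, where it lies on the opposite strand, 71 bases before it. The stretch shown for Slc3a1 runs up to its gene start, and that for Treh ends short of its gene start. The values of both genes are given with their groups.

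Carriers of sugar, phosphate and ions were lower without exception, 21 of 21 tested, at a median of -4.63. Slc34a1, the main phosphate cotransporter of the brush border, stood at -0.18, -0.59 and -0.27 in the organoids and at 5.9 in newborn kidney. All 3 organoid arrays lay below the E15.5 kidney, at 2.94, and the difference from newborn kidney was 75.8-fold (adjusted p = 0.00143). Slc5a2, the cotransporter that recovers most filtered glucose, stood at -4.44, -4.94 and -4.73 against 4.05, with 1 of the 3 organoid arrays well above background (433-fold lower, adjusted p = 0.000288). Slc5a12, a lactate cotransporter, was at least 519-fold lower, also with 1 organoid array above background. The basolateral glucose carrier Slc2a2 was 24.9-fold lower, and Slc13a3, which takes up dicarboxylates, differed by -7.64 ± 0.41. Aqp1, the water channel of the proximal tubule and thin limb, was less reduced. It stood at 3.65, 3.09 and 3.58 against 6.04, close to the E15.5 kidney at 3.63, and the 6.08-fold difference (adjusted p = 0.0176) did not pass with the slide as a block (adjusted p = 0.193).

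Of 24 carriers of organic ions 21 were lower, at a median of -4.07. Slc22a6, the anion transporter OAT1 that takes drugs and toxins from blood, stood at -0.35, -0.35 and -0.21 against 5.71 in newborn kidney. This is a 64.5-fold difference with an SE of 0.12 on the log2 scale (adjusted p = 2.17e-05). Slc22a2, the cation transporter OCT2, stood at -3.45, -3.65 and -3.53 against 4.23 (219-fold lower, adjusted p = 0.000748). The anion transporter Slc22a7 was not well above background on any organoid array and was at least 111-fold lower. A fold written as "at least" sets the brighter group against the lowest level at which a probe was well above background on the dim array, or the gene's own level there if higher.

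Amino acid and peptide carriers were lower in 18 of 20 genes, at a median of -3.57. Slc3a1, the heavy subunit of the cystine transporter, stood at -2.43, -2.42 and -2.07 against 3.92 (74.9-fold lower, adjusted p = 4.64e-05). Slc6a19, the main carrier of neutral amino acids, was 35.2-fold lower. Slc7a13 and Slc6a20b were not well above background on any organoid array, at least 54.3-fold and 52.6-fold lower.

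Endocytosis and brush border genes were lower in 22 of 24, at a median of -2.89. Lrp2, which encodes the endocytic receptor megalin, stood at 1.87, 1.3 and 1.82 against 5.87 in newborn kidney (18.5-fold lower, adjusted p = 0.00122). The organoid levels lay above the E13.5 kidney, at -0.5, and below the E15.5 kidney, at 3.32. Its partners Cubn and Amn, which form the cubilin complex, were 37.3-fold and 70.7-fold lower. The brush border protease Mep1b stood at -3.15, -3.26 and -3.06 against 5.16, a 317-fold difference (adjusted p = 2.57e-05). Acmsd, an enzyme of tryptophan breakdown, and trehalase, Treh, were not well above background on any organoid array. They were at least 41.9-fold and 22.6-fold lower, and Treh did not pass with the slide as a block (adjusted p = 0.115).

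Metabolic enzymes of the proximal tubule were lower in 41 of 43 genes, at a median of -4.46. Miox, which opens the ring of inositol and is nearly confined to kidney, stood at -1.52, -2.5 and -2.05 against 7.58 (777-fold lower, adjusted p = 0.000219). Pck1 and Fbp1, enzymes of glucose production, differed less than Miox but by more than the list median. Pck1 stood at 0.02, -0.13 and 0.05 against 4.87 (29.7-fold lower), and Fbp1 at 0.81, 0.53 and 0.54 against 7.63 (128-fold lower). Both enzymes passed with the slide as a block too. The organoid levels of Pck1 were near the E15.5 kidney at 0.21.

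Fatty acid oxidation, the main fuel of the mature tubule, was lower in all 22 tested genes, at a smaller median of -1.4. Cpt1a, which admits fatty acids to mitochondria, stood at 1.93, 1.96 and 1.89 against 4.06 (4.38-fold lower, adjusted p = 9.7e-05). Ehhadh, a peroxisomal enzyme, was 21.3-fold lower. With the slide as a block 21 of the 22 were lower.

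**Figure D2:**
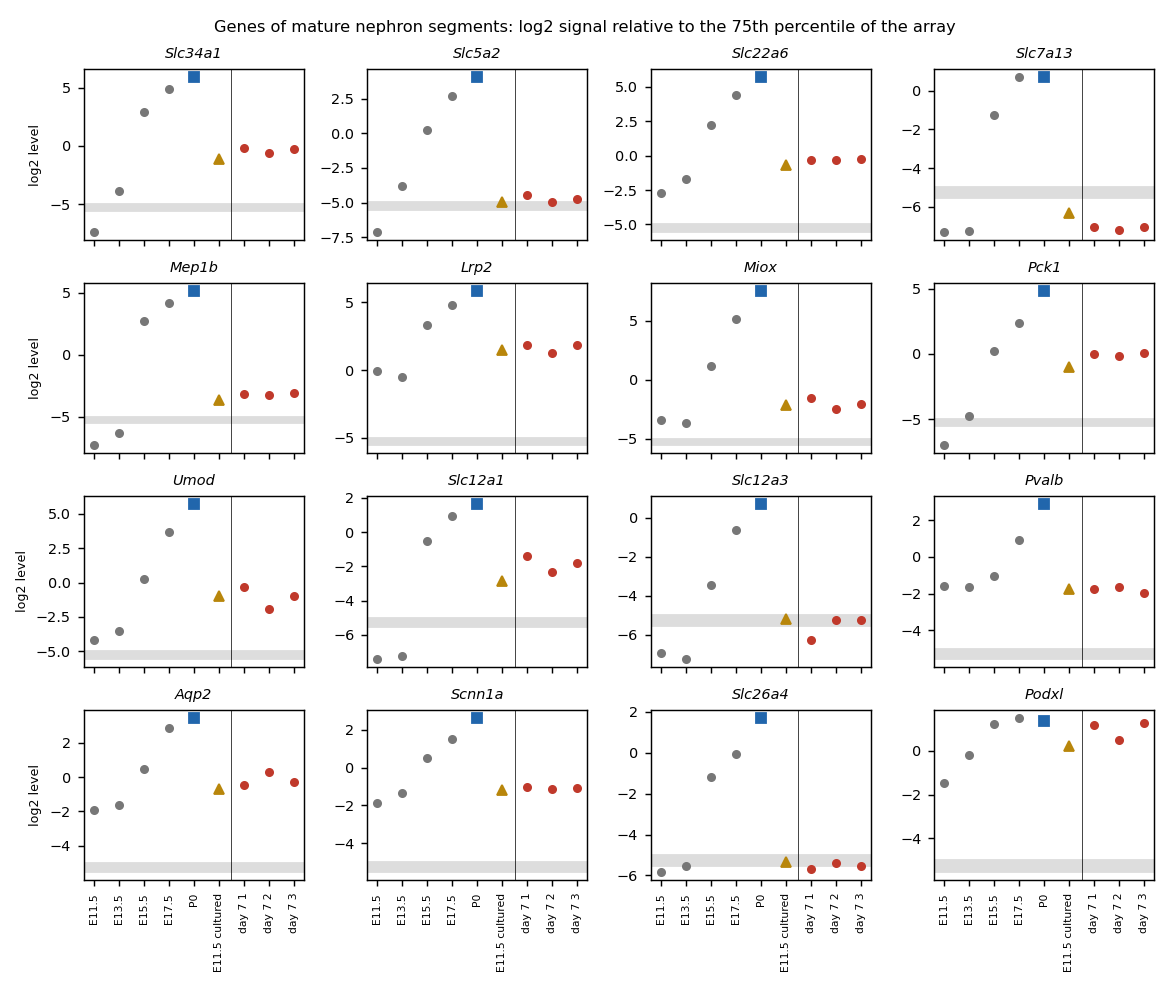
Level of 16 genes of mature segments (y axis, log2 signal relative to the 75th percentile of the array) in each array (x axis): fresh kidneys in grey, newborn kidney as a blue square, cultured E11.5 kidney as a triangle and day 7 organoids in red. The grey band spans the lowest levels well above background on these arrays; organoid levels of Slc7a13 lie under it, and those of Podxl lie from 0.51 to 1.26, under the newborn array at 1.35.

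The loop of Henle was lower in 16 of 20 tested genes, at a median of -2.86, and in 11 with the slide as a block. Umod, the most abundant protein of normal urine, made in the thick ascending limb, stood at -0.34, -1.93 and -0.99 against 5.7 (110-fold lower, adjusted p = 0.00143). The organoid levels spanned the cultured E11.5 kidney, at -1.0. Slc12a1, the sodium-potassium-chloride cotransporter that furosemide blocks, stood at -1.41, -2.34 and -1.78 against 1.64 (11.2-fold lower, adjusted p = 0.0014). Cldn10, a paracellular channel for sodium, was 15.3-fold lower. The potassium channel Kcnj1 was 3.62 ± 1.28 below newborn kidney and did not pass the test (adjusted p = 0.0638), but did without day 0 replicate 3 (adjusted p = 0.00101).

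The distal tubule was lower in 15 of 20, at a median of -2.23. Slc12a3, the thiazide-sensitive cotransporter that defines the distal convoluted tubule, was not well above background on any organoid array. Its signals were -6.28, -5.26 and -5.27 against 0.7 in newborn kidney, at least 54.7-fold lower (adjusted p = 0.000356). Parvalbumin, Pvalb, stood at -1.77, -1.64 and -1.97 against 2.87, a 25.3-fold difference that left the organoids at the E13.5 level of -1.65. Kl, the co-receptor through which FGF23 acts, was 116-fold lower, and Trpm6, a magnesium channel, 14.2-fold. The calcium buffer Calb1 was 4.44-fold lower (adjusted p = 0.00158).

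The lists of principal and intercalated cells in the collecting duct differed. The principal list also holds keratins, so its median does not measure the channels and receptors of principal cells alone. In the list of principal cells 9 of 24 genes were lower (37.5%, against 18.1% of all genes), at a median of -0.59. There 3 were higher (12.5%, against 24.6% of all genes) and 12 did not pass the test. In the list of intercalated cells 17 of 20 were lower and none higher, at -3.33. Aqp2, the water channel that vasopressin regulates, stood at -0.47, 0.27 and -0.26 against 3.47 (12.3-fold lower, adjusted p = 0.00049). The sodium channel subunit Scnn1a stood at -1.02, -1.12 and -1.07 against 2.65 (13.2-fold lower), while its partner Scnn1b differed by -0.34 ± 0.36 and did not pass the test. Avpr2, the vasopressin receptor, was 3.91-fold lower. The water channels Aqp4 and Aqp3 were 6.99-fold and 5.75-fold lower, and the sodium channel subunit Scnn1g 5.67-fold. With the slide as a block Aqp3 and Scnn1g did not pass (adjusted p = 0.178 and 0.326). Scnn1g did not pass without any 1 of the day 7 arrays either. The keratins Krt8 (0.09 ± 0.36) and Krt18 (0.91 ± 0.35), found through the ureteric epithelium, did not pass; Krt18 passed at 1.14 without day 7 replicate 3 (adjusted p = 0.0319). The 3 higher genes were Krt19, Stc1 and Elf3, a keratin, a secreted glycoprotein and an epithelial transcription factor, by 2.16, 1.63 and 1.42. Krt19 did not pass without day 7 replicate 1 or 2 or day 0 replicate 1 or 3 (adjusted p from 0.0551 to 0.0812).

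Intercalated cells secrete acid or base through a proton pump and anion exchangers. Slc26a4, pendrin, the exchanger of base-secreting cells, was not well above background on any organoid array, at -5.67, -5.4 and -5.55 against 1.71 (at least 110-fold lower, adjusted p = 0.00024). Foxi1, the transcription factor that specifies these cells, stood at -1.35, -1.03 and -1.38 against 2.17 (difference -3.42 ± 0.3, adjusted p = 0.000506). The pump subunits Atp6v1b1 and Atp6v1c2 were 9.46-fold and 31.6-fold lower, and Car15, a carbonic anhydrase, 27.8-fold. The organoid level of Foxi1 lay at the E13.5 kidney's, -1.19.

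Transcription factors and cofactors of maturing tubules were lower in 13 of 20, at a median of -1.46, with Rxra alone higher, by 0.52. Rxra did not pass without day 7 replicate 1 or 2 or day 0 replicate 1 (adjusted p from 0.0505 to 0.0827). Hnf4a, which drives the proximal program, stood at 3.15, 2.62 and 3.31 against 5.54 (5.69-fold lower, adjusted p = 0.0221); without day 7 replicate 2 (adjusted p = 0.0501), or with the slide as a block (adjusted p = 0.198), it did not pass. Nr1h4, the bile acid receptor FXR, was 33.9-fold lower, Esrrb 11.9-fold and Ppargc1a, a coactivator of mitochondrial genes, 4.22-fold.

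Vessels and renin cells were lower in part. Of 20 endothelial genes 10 were lower, against 18.1% of all genes, and none higher, at a median of -1.18. With the slide as a block 5 were lower. Plvap, a protein of fenestrated capillaries, stood at 0.19, 0.08 and 0.05 against 3.57 (difference -3.47 ± 0.11, adjusted p = 3.32e-05), and the angiopoietin receptor Tek was 12.7-fold lower. Kdr, the main VEGF receptor, stood at 2.6, 2.43 and 2.49 against 2.58 (difference -0.07 ± 0.12, adjusted p = 0.647). Pecam1 (-0.36 ± 0.5) and Cdh5 (-0.81 ± 0.58), both junction proteins, did not pass; day 7 replicate 2 was lowest for both. Cdh5 was 0.45 there and 1.9 and 1.98 on the other arrays. Ren1, renin itself, stood at -2.64, -2.74 and -2.32 against 2.59, a 35.6-fold difference (adjusted p = 7.33e-05) near the E11.5 and E13.5 kidneys, at -2.95 and -2.83. In the list of renin cells 4 of 8 genes were lower and 2 higher, at a median of -1.07, with 2 lower and 1 higher in the slide block.

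**Figure D3:**
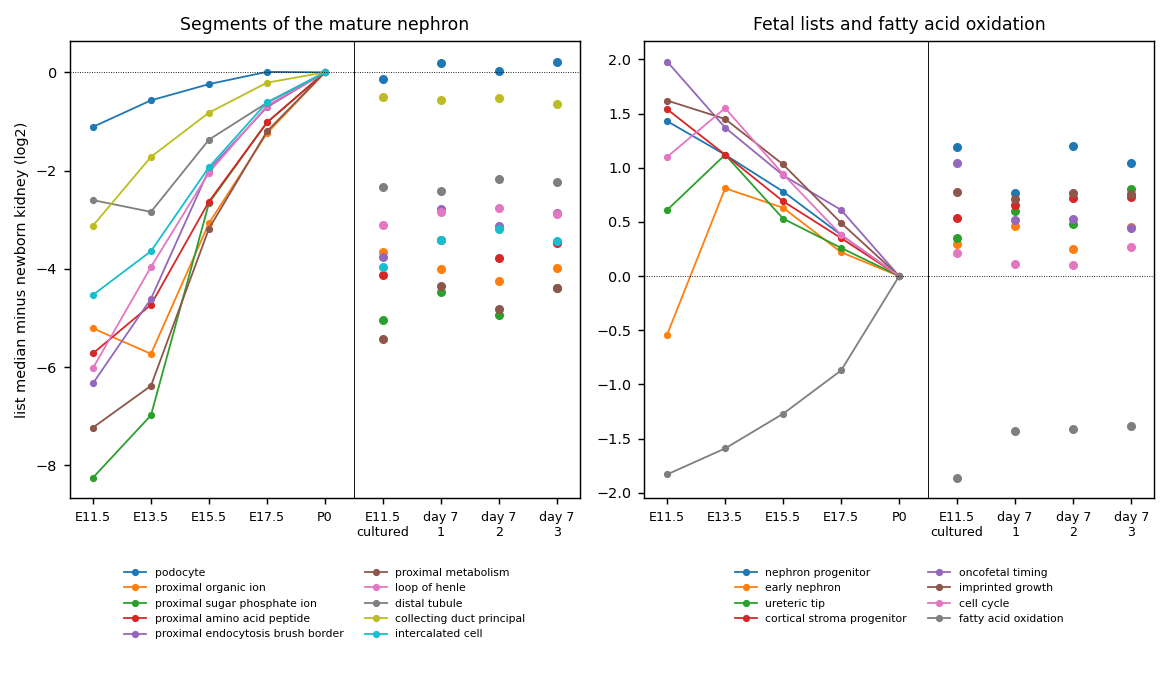
Median of each list relative to newborn kidney (y axis, log2) in fresh kidneys from E11.5 to P0 (joined points), the cultured E11.5 kidney and each day 7 organoid array (x axis). The tubule lists of the day 7 arrays lie between the medians of E13.5 and E15.5 kidney for sugar, phosphate and ion transport, and the podocyte list lies between 0.03 and 0.22.

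Over the 9 tubule lists together, 179 of 215 tested genes were lower (83.3%), 5 higher (2.33%) and 31 not past the test, at a median of -3.35. The fresh kidneys give a scale for these values. For sugar, phosphate and ion transport the list median relative to newborn kidney was -6.98 at E13.5, -2.66 at E15.5 and -1.02 at E17.5, with the organoids at -4.63. Among the members whose levels spanned at least 4-fold over the 5 fresh stages, the nearest stage was P0 for 4 of 18 principal cell genes and 1 of 17 amino acid and peptide carriers. It was P0 for no such member of the other 7 tubule lists, among them 40 metabolic genes, 20 organic ion genes and 17 loop genes. Members outside the range of the fresh stages were counted too, so a nearest stage is not a level reached. Slc6a20a, the 1 carrier nearest to P0, lay below all 5 stages with a mean of -3.0. It was 3.88-fold lower than in newborn kidney (adjusted p = 0.0053). In the loop list 12 of 17 members were nearest to E15.5, and in the intercalated list 11 of 17 were nearest to E13.5. Members too dim in the organoids were counted as well, and for these an early nearest stage can mean only that both were dim. Slc26a4, with an organoid mean of -5.54, was matched to E13.5 at -5.54. The lowest level well above background on the E13.5 array was -5.094. In the podocyte list 2 of 9 were nearest to P0 and 4 to E15.5.

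The E11.5 kidney cultured for 7 days is set beside the organoids for these lists. Relative to the newborn array, which both comparisons share, its list medians were -3.66 for organic ion carriers, -5.42 for metabolism, -3.11 for the loop, -0.5 for principal cells and -3.97 for intercalated cells. Of the 132 proximal genes 122 were at least 2-fold below newborn kidney in the cultured kidney. The organoid mean was at least 2-fold above the cultured kidney for 28 of these genes and at least 2-fold below it for 8. With 1 cultured array these are values with no test.

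Genes of the nephron-forming zone were higher in the organoids. Over the lists of nephron progenitors, early nephrons, ureteric tips and cortical stroma, 39 of 71 genes were higher (54.9%), against 24.6% of all genes, and 5 were lower (7.04%), at a median of 0.71. With the slide as a block 24 were higher and 3 lower.

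In the nephron progenitor list 15 of 22 genes were higher and none lower, at a median of 1.0. Without day 7 replicate 2, 2 genes passed as lower. Six2, the factor that keeps cap mesenchyme undifferentiated, stood at 5.24, 5.59 and 5.47 against 3.71 in newborn kidney (3.31-fold higher, adjusted p = 0.00219). All 3 organoid arrays lay between the E13.5 kidney, at 5.71, and the E15.5 kidney, at 4.98. Gdnf, the signal by which the cap draws out ureteric branches, stood at 2.73, 2.92 and 2.84 against 1.69 (2.21-fold higher, adjusted p = 0.00388). Osr1, a gene of earlier mesoderm, stood at 0.52, 1.01 and 0.52 against -1.95 (6.22-fold higher), and Eya4, a transcriptional cofactor of organ development, at -0.55, -0.19 and -0.3 against -2.2 (3.62-fold higher, adjusted p = 0.000579). All 3 organoid arrays lay above the newborn array for both genes. Members that did not pass include Eya1 (0.04 ± 0.1), Itga8 (0.3 ± 0.1) and Meox1 (-0.64 ± 0.29). Itga8 passed as higher without day 0 replicate 2 (adjusted p = 0.0499), and Meox1 as lower, at -0.84, without day 7 replicate 2 (adjusted p = 0.0318). Cited1, a cap marker, was higher by 1.09 but did not pass without day 7 replicate 3, without any 1 of the day 0 arrays (adjusted p from 0.0665 to 0.0877) or with the slide as a block (adjusted p = 0.229).

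Early nephron structures were less distinct. Of 20 genes 8 were higher (40.0%, against 24.6% of all genes), 1 lower and 11 not past the test, at a median of 0.36. With the slide as a block 4 were higher. Bmper, a BMP-binding protein, stood at 3.38, 3.17 and 3.4 against 0.83 (5.61-fold higher, adjusted p = 0.000168), and Sox9 at 1.22, 1.14 and 1.16 against -0.03 (2.31-fold higher). The genes that pattern the renal vesicle did not pass: Lhx1 stood at 0.89, 0.99 and 1.23 against 1.72 (difference -0.68 ± 0.22, adjusted p = 0.0507, from 0.00281 to 0.467 over the alternatives, 8 of which passed), and Jag1 differed by 0.02 ± 0.14. Wnt4, which turns progenitors into epithelium, was higher by 0.85, and did not pass without any 1 of the day 7 arrays or with the slide as a block (adjusted p = 0.26). The 1 lower gene was Papss2, a sulfation enzyme, by 2.55-fold.

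Ureteric tip genes were higher in 7 of 15 (46.7%, against 24.6% of all genes) and lower in 2, at a median of 0.7. In the slide block 4 were higher and 1 lower. Without any 1 of the day 7 arrays 1 gene was lower. Etv5 and Spry1, a target and an inhibitor of RET signalling, were 1.78-fold and 1.81-fold higher. Ret itself stood at -0.13, -0.11 and 0.25 against -0.55 and did not pass (0.55 ± 0.22, adjusted p = 0.0908), nor did Wnt11, at 0.02 ± 0.15.

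In the cortical stroma list 9 of 15 were higher and 2 lower, at a median of 0.71, with 5 higher and 1 lower in the slide block. Foxd1, which defines stromal progenitors, stood at 1.21, 1.46 and 1.28 against -0.27 (3.01-fold higher, adjusted p = 0.000499). It lay between the E15.5 kidney, at 1.79, and the E17.5 kidney, at 0.95. Meis2 and Pdgfra were 2.3-fold and 2.73-fold higher. The retinoid-binding protein Crabp1 went the other way, at -1.95, -1.45 and -2.35 against 0.84, or 6.76-fold lower (adjusted p = 0.00254), below the fresh kidney of every stage, whose lowest level was -0.19 at E17.5. Its relative Crabp2 differed by 0.03 ± 0.31.

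Genes of fetal timing and growth were mixed. Of 17 oncofetal and timing genes 9 were higher and 4 lower, at a median of 0.5, and with the slide as a block 7 were higher and 0 lower. Without day 0 replicate 1 or 2, 2 were lower. Hmga2, a chromatin protein of embryonic growth, stood at 2.84, 2.64 and 2.86 against 0.7 (4.23-fold higher, adjusted p = 0.000164), between E15.5 at 3.17 and E17.5 at 1.6. Trim71, a target of let-7 microRNAs, was 4.93-fold higher on its brightest probe, and 1 of its 2 bright probes had the opposite sign. Plag1, a growth regulator, was 3.86-fold higher. Lin28b, which blocks let-7, was not well above background on any organoid array, at -5.38, -7.02 and -5.68 against -3.96 in newborn kidney and 2.31 at E11.5. Its call as lower did not hold without any 1 of the day 0 arrays (adjusted p from 0.0528 to 0.055), nor with the slide as a block (adjusted p = 0.192).

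The growth genes of imprinted loci were higher in 9 of 14 and lower in none, at a median of 0.7. Dlk1, a Notch-like membrane protein, stood at 5.42, 5.58 and 5.45 against 2.53 (7.74-fold higher, adjusted p = 0.000143). The cultured kidney, at 5.81, was above the organoids. The non-coding RNA H19 stood at 8.4, 8.52 and 8.39 against 7.34 (2.13-fold higher) and Igf2, its neighbour, at 1.56, 1.53 and 1.45 against 0.82 (1.62-fold higher, adjusted p = 0.0052). The organoid level of Igf2 was below the fresh kidney of every embryonic stage, 2.39 at E17.5 being the lowest of these.

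Most cell division genes did not pass the test. Of 26 genes 5 were higher (19.2%, against 24.6% of all genes), 0 lower and 21 not past the test, at a median of 0.17. With the slide as a block 3 were higher, and 2 or 3 without 1 of the day 7 arrays. The replication clamp Pcna stood at 5.13, 5.21 and 5.36 against 5.18 and the proliferation marker Mki67 at 4.56, 4.69 and 4.73 against 4.37; neither passed (0.06 ± 0.15 and 0.29 ± 0.13). Ccne1 was 1.64-fold higher. The fresh kidney was higher earlier, with list medians relative to newborn kidney of 1.1 at E11.5 and 1.55 at E13.5. Both embryonic globins tested, Hbb-bh1 and Hbb-y, were not well above background on any organoid array and were called lower, but neither with the slide as a block. Hbb-y stood at 8.87 in the E11.5 kidney.

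**Figure D4:**
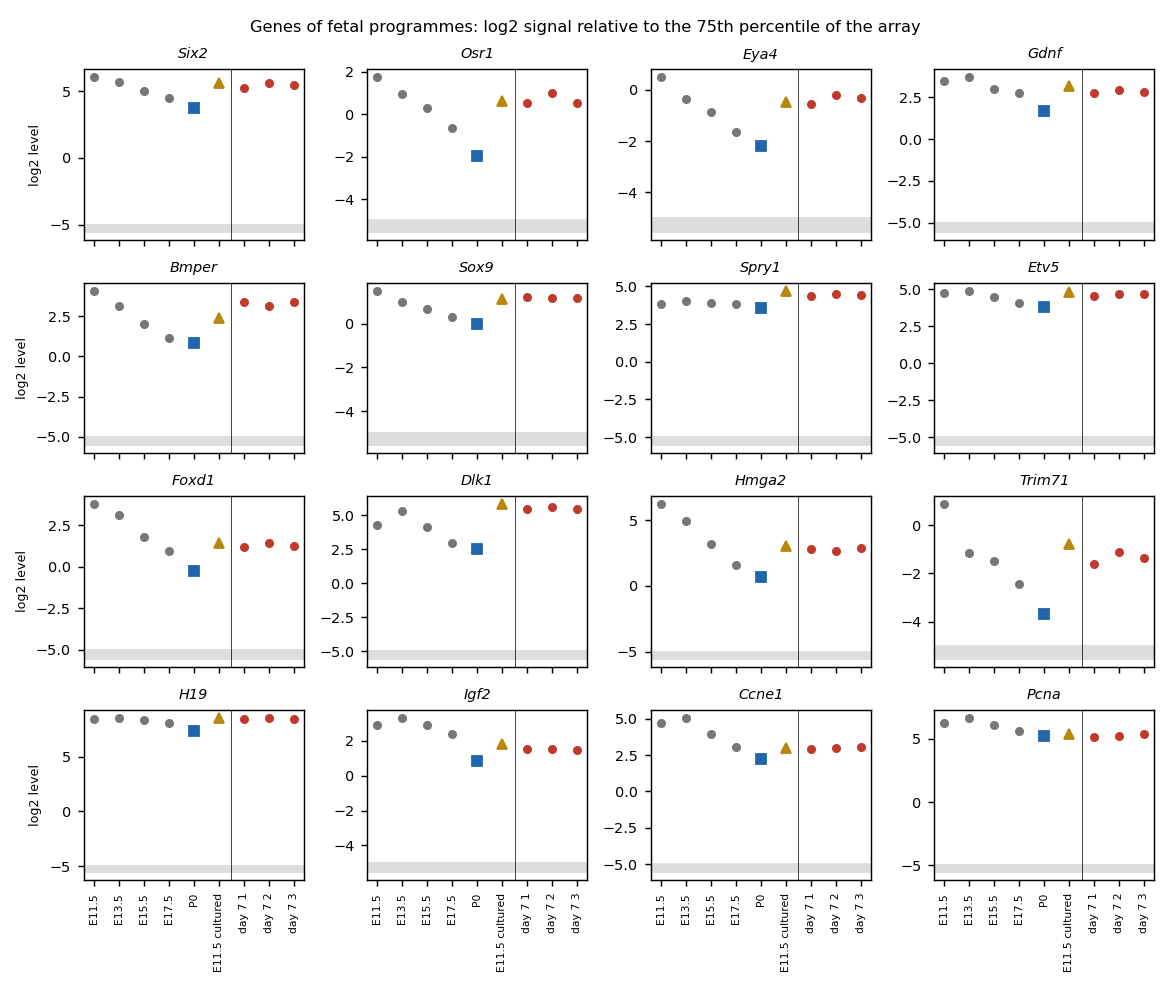
Level of 16 genes of fetal programmes (y axis, log2 signal relative to the 75th percentile of the array) in each array (x axis): fresh kidneys in grey, newborn kidney as a blue square, cultured E11.5 kidney as a triangle and day 7 organoids in red. The organoid levels of Six2, Osr1, Foxd1 and Hmga2 lie above the newborn array, and those of Pcna lie at it.

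Genes chosen from the fresh kidneys alone were compared as well. Late genes were at least 4-fold brighter in E17.5 than in E11.5 kidney, and early genes the reverse; neither of these arrays enters the difference described. Of 1453 late genes, 131 were too dim to test, 807 were lower in the organoids than in newborn kidney (55.5% of the 1453) and 122 higher (8.4%). Among the late genes tested, 61.0% were lower and 9.23% higher, against 18.1% and 24.6% of all tested genes. For 149 of the lower late genes no organoid array was above background. Of 417 early genes, 183 were too dim in both groups to test, 128 were higher (30.7% of the 417) and 27 lower (6.47%). The higher early genes include 32 that were not above background in newborn kidney and so were tested because they were high in the organoids. With no background filter 133 early genes were higher.

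The early genes with the largest excess, named after their values were seen, included genes of other embryonic tissues. Evx1, a homeobox gene of posterior mesoderm and spinal cord, stood at -1.18, -0.58 and -1.97, was not above background in newborn kidney and was at least 18.2-fold higher (adjusted p = 0.000432). Sst, which encodes somatostatin, stood at -0.82, -0.67 and -0.78 and was at least 25.5-fold higher. Both were present in the E11.5 kidney, at -1.66 and -0.79. Hand2 and Hoxa13, transcription factors of limb mesenchyme among other tissues, were at least 5.31-fold and 4.72-fold higher. Xist, the RNA that coats the inactive X chromosome, was among these genes too, at -1.44, -1.48 and -1.31, not above background in newborn kidney and at least 16.2-fold higher (adjusted p = 0.000142). It was not above background in the E17.5 kidney either and stood at 0.01 in the E11.5 kidney. Ddx3y, a gene of the Y chromosome, stood at -0.48, -0.47 and -0.5 against 1.18 (3.17-fold lower, adjusted p = 0.000541), so transcripts of both kinds were measured in the organoids. The labels give no sex, and its part in the other results was not tested.

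Several other cell types or states differed between the groups, and their part in the results above was not tested. Smooth muscle genes were higher in 9 of 12 and lower in none, at a median of 2.34, and their summed linear level was 544.0 to 673.0 in the organoids against 103.0 in newborn kidney. Actg2, an actin of visceral smooth muscle, stood at 6.3, 5.93 and 5.89 against 0.5 (46.5-fold higher, adjusted p = 4.68e-05), and the contractile proteins Cnn1 and Tagln were 17.9-fold and 7.89-fold higher. Matrix genes of stroma were higher in 13 of 15, at a median of 1.61. Col1a2, a chain of fibrillar collagen, stood at 8.36, 8.01 and 8.12 against 6.51 (3.14-fold higher, adjusted p = 0.000675), and Lox, which crosslinks collagen, was 8.31-fold higher. Summed levels of the matrix list were 871.0 to 997.0 against 355.0.

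Genes of glycolysis and the response to low oxygen were higher in 17 of 18, at a median of 2.15, with Ndrg1 lower, at -1.28, but not past the test with the slide as a block. The lactate exporter Slc16a3 stood at 5.62, 5.78 and 5.51 against 0.72 (30.2-fold higher, adjusted p = 5.2e-05), Hk2, the first enzyme of glycolysis, was 11.4-fold higher, and the glucose carrier Slc2a1 7.15-fold. The cultured E11.5 kidney had Slc16a3 at 5.7 and a list median of 2.1 relative to newborn kidney. Injury and inflammation genes were higher in 7 of 13 and lower in 1, at 1.34, with 4 higher in the slide block. Timp1, an inhibitor of matrix proteases, was 11.1-fold higher, and the injury marker Havcr1 was not tested, its brightest probe being too dim.

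Red cell genes were lower in 10 of 12, at a median of -5.9, and in 3 with the slide as a block. With normexp, another background correction, the median was -2.18. Their summed level was 55.4 to 58.5 in the organoids, 520.0 in newborn kidney and 68.9 in the cultured kidney. Little of the organoid sum came from globins: Hba-a2 stood at 0.79, -1.15 and -0.58 against 8.24 in newborn kidney. The list also holds 2 genes that did not pass the test, and its highest difference was 0.09, so the sum does not measure the globin signal left. Hba-a1, adult alpha globin, stood at -2.41, -4.1 and -3.72 against 6.43 (916-fold lower, adjusted p = 0.00285). Alas2, Ahsp, Epb42 and Hbb-b1 were not well above background on any organoid array. Of 13 tested macrophage genes 5 were lower (38.5%, against 18.1% of all genes) and none higher, at a median of -2.57. Without day 7 replicate 2, 8 were lower. With the slide as a block 2 were lower and 1 higher. The organoid arrays differed among themselves here: Cx3cr1, a receptor of resident macrophages, stood at -6.73, -0.94 and -2.13 against 1.24, and did not pass (adjusted p = 0.124), but was lower at -2.77 without day 7 replicate 1 (adjusted p = 0.0217). The summed level of the list was 3.66 to 7.19 in the organoids and 20.4 in newborn kidney, and Cd163 and Fcgr1 were not above background on any organoid array.

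Neuronal genes were higher in 6 of 12, against 24.6% of all genes. The neurofilament Nefm stood at -2.12, -2.58 and -1.85 and was not above background in newborn kidney (at least 9.48-fold higher). The E11.5 kidney had Nefm at -0.15. The summed level of the neuronal list was 12.4 to 17.1 against 9.68, and Elavl3 was not above background on any organoid array. Genes of skeletal muscle were higher in 4 of 10 and of cartilage and bone in 4 of 10, against 24.6% of all genes. With the slide as a block each list had 2 higher, against 1820 of all 17604 genes. The summed levels of these 2 lists were 9.84 to 13.9 against 6.14 and 11.2 to 13.1 against 7.74. Ckm, Matn3 and Bglap were not above background on any organoid array. Of 8 tested pluripotency genes 1 was higher, Utf1, which did not pass without day 7 replicate 1 or 3, and Pou5f1 and Sox2 were too dim to test. The list's summed level was 5.13 to 5.68 against 4.82. Urothelial genes and keratins varied most between organoids: Krt5, a basal cell keratin, stood at 2.27, 4.46 and -1.11 against -1.57, and the summed level of the list was 29.5, 80.9 and 16.3 against 27.5. Without day 7 replicate 3 the count of higher genes in this list went from 1 to 4, with Krt5 at 4.94 (adjusted p = 0.0138).

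**Figure D5:**
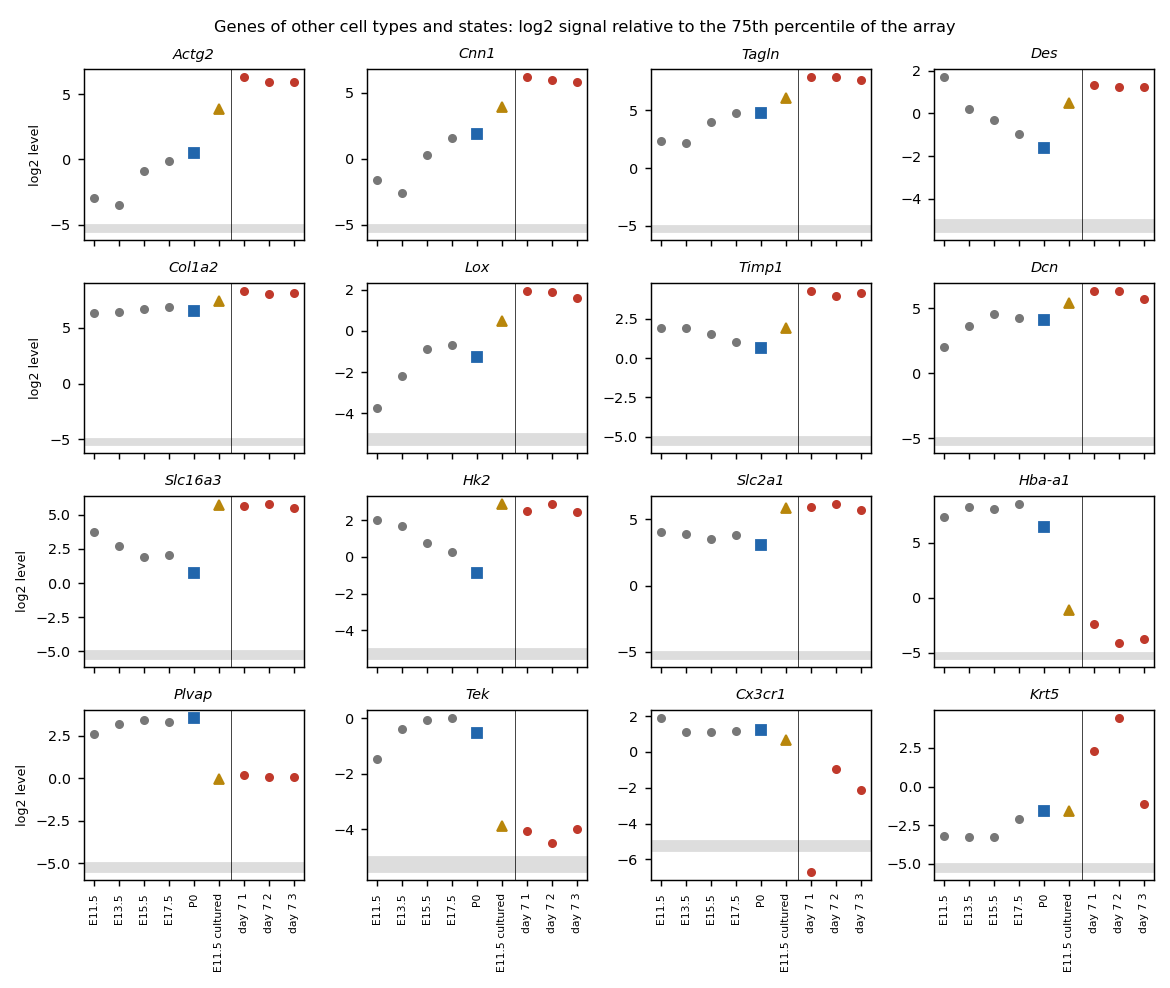
Level of 16 genes of other cell types and states (y axis, log2 signal relative to the 75th percentile of the array) in each array (x axis): fresh kidneys in grey, newborn kidney as a blue square, cultured E11.5 kidney as a triangle and day 7 organoids in red. Smooth muscle, matrix and glycolysis genes lie above the newborn array, Hba-a1, Plvap and Tek below it, and Cx3cr1 and Krt5 are spread over the 3 organoid arrays.

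Outside the lists, the genes with the largest excess included Ltbp2, a protein of extracellular microfibrils, at 3.74, 3.67 and 3.65 against -2.76 (87.0-fold higher, adjusted p = 0.000323). Inhba, a subunit of activin, stood at 3.2, 2.47 and 2.74 against -3.41 (74.5-fold higher), and Trib3, a gene of the response to amino acid lack and to stress of the endoplasmic reticulum, at 4.26, 4.26 and 3.9 against -1.46 (48.5-fold higher). The 12 with the largest excess also included Glipr1, AA388235, Mgarp, 2610528A11Rik, Ptprn, Actg2, Evx1 and Sst. Among the 12 with the largest deficit, Serpina6, the carrier of corticosteroids in blood, stood at -4.48, -5.11 and -5.04 against 5.68, with 1 of the 3 organoid arrays well above background (at least 1460-fold lower, adjusted p = 6.75e-05). S100a9, a calcium-binding protein of neutrophils, Dmgdh, an enzyme of choline breakdown, and Cyp4a32, a fatty acid hydroxylase with close relatives, were not above background on any organoid array. They were at least 183-fold, 129-fold and 129-fold lower. The 12 also included Defb19, the globins Hba-a1, Hbb-b1 and Hbb-bt, and Miox, Slc5a2 and Slc5a12. The globin genes, the Cyp4a genes and the Slc22a genes have near-identical relatives that probes may not tell apart.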

How the data were processed

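Total RNA was labelled with Cy3 and hybridised to 1-colour Agilent arrays, per the labels' protocols. The deposited scanner files give each spot's intensity after background subtraction by Feature Extraction (11.5.1.1 per the file headers, 10.7.3.1 per the submitters' processing notes). The authors' deposited value table holds log2 values that differ from the scaling used here by a constant per array; who centred it and how is not given in the sources used here. Control and outlier spots were left out, the log2 intensity minus the 75th percentile of each array was taken, spots of a probe were averaged, and each gene took the values of its brightest probe, by the mean of the 12 arrays. Probes were named through the RefSeq gene table. Genes well above background on all 3 day 7 arrays or on the newborn array were tested with limma 3.58.1 in R 4.3.3, 2-sided, over 8 groups with 4 residual degrees of freedom from the organoid groups. P-values were adjusted over all 17604 genes by Benjamini-Hochberg, with a threshold of 0.05. The number of arrays limits the precision. The members and lists were chosen with earlier results of these data known. Named genes are the 12 largest differences each way and up to 5 of each list, with all day 7 arrays on 1 side of the newborn array and the brighter group well above background; defining members that did not pass are added. Other genes were named for their function after their values were seen. Some list members and motifs are not reported here. The fits were tested on simulated data in which every array, the newborn one included, varied as organoid replicates do. That simulation cannot check this assumption for the newborn array. Alternatives covered background correction, scaling, probe choice, filters, the slide as a block, moderation and leaving out each organoid array.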

Additional observations from a re-analysis of the deposited data

How the results depend on the processing

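Counts of genes higher and lower (4339 and 3183) moved most with the slide as a block, to 1820 and 2034, and with a 2-fold threshold, to 1375 and 1900. Normexp background correction gave 6741 higher and 3171 lower. Genes higher made up 57.7% of those called, 47.2% with the slide as a block, 68.0% with normexp, 62.1% with genes well above background on all 4 arrays and 49.1% with the 75th percentile of probes well above background on all arrays, a scaling that moved the median of all genes from 0.09 to -0.01. Late genes counted as higher went from 122 to 208 with normexp and to 80 with the slide block. Early genes counted as lower went from 27 to 11 with normexp, to 11 with all 4 arrays above background and to 13 with the slide block. The cause was not tested. Without 1 organoid array, of day 0 or day 7, 3200 to 4694 genes were higher and 2622 to 3294 lower; late genes gave 96 to 127 higher and 760 to 832 lower, early genes 120 to 130 and 23 to 29. Of 167 genes named by rule, 42 did not pass with the slide block and at most 12 of those tested under any other setting. Only 129 of the 167 were tested with genes well above background on all 4 arrays. With normexp the embryonic globin list had a median of 0.11, Hbb-y a difference of 0.24 and Lin28b 0.04, each reversed. Normexp also moved the medians of organic ion carriers from -4.07 to -2.07, the distal tubule from -2.23 to -1.46, red cells from -5.9 to -2.18, macrophages from -2.57 to -1.23, skeletal muscle from 0.86 to 0.55, injury genes from 1.34 to 0.82 and cell division from 0.17 to 0.1, and turned the small medians of pluripotency genes (-0.25 to 0.21) and of urothelium and keratins (-0.26 to 0.04). The other list medians moved by at most 1.5 times under it. No paired analysis was possible because the newborn kidney group holds 1 array without a replicate number. Probes not well above background give bounds only.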

Other observations

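Histone H4 genes, chosen after their values were seen, alternated among the fresh kidney arrays. H4c4 stood at 8.09, 8.23 and 8.21 in day 7 organoids and at 3.06 in newborn kidney (difference 5.12 ± 0.18, adjusted p = 3.92e-05). It stood at 4.18 in the E11.5 kidney, 7.54 at E13.5, 4.1 at E15.5, 8.03 at E17.5 and 4.1 in the cultured E11.5 kidney. H4c14, H4c12 and H4f16 had the same high arrays (E13.5, E17.5 and day 7) and the same low ones. The day 0 organoids were high too, with means of 7.35 for H4c4, 6.27 for H4c14, 6.26 for H4c12 and 3.52 for H4f16.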
